A study of Mus musculus with 14 samples.

Results

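Samd7, Samd11, Casz1, Prdm1 and Pias3 encode nuclear proteins known to hold genes down, or to help others do so, in photoreceptors. The 5 genes were chosen by name, and all 5 were found among the 24421 genes of the RNA-seq count table. Of the 53204 elements of the ATAC-seq count table, each 200 bp long and centered on a peak of open chromatin, 68 lay within 50 kb of 1 of these genes. RNA was counted in 6 libraries and open chromatin in 8.

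Photoreceptors were purified by fluorescence-activated cell sorting from C57BL/6 mice aged 8 weeks. Rods came from Nrl-eGFP mice, in which the promoter of the rod gene Nrl drives GFP, with 2 ATAC-seq and 3 RNA-seq libraries. Nrl-/- photoreceptors, labelled blue cones, came from Nrl-eGFP mice that also carry the Nrl knockout, with 2 ATAC-seq and 3 RNA-seq libraries. Green cones came from Opn1mw-GFP mice, with 2 single-sorted and 2 double-sorted ATAC-seq libraries, and no RNA was measured in them. The genotype and the cell type therefore cannot be told apart in the RNA comparison. Each library was made from the pooled retinas of several mice. The methods state that green cones were sorted again to improve their purity. The table of sequencing metrics of the study gives the Nrl-/- line for single-sorted green replicate 1, whereas its label gives Opn1mw-GFP, and single-sorted libraries entered only the values per library, the summed counts and alternatives.

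Nrl is the transcription factor that commits photoreceptor precursors to the rod fate, and photoreceptors that lack it take on cone features. Samd7 and Samd11 are retinal proteins with a sterile alpha motif, a domain that lets proteins form chains. Both act with Polycomb repressive complex 1, which places ubiquitin on histone H2A at silent genes, and in mouse rods they keep genes of other cell types silent. Casz1 is a zinc finger transcription factor that favors rod over other fates in the mouse retina and takes part in the organization of the rod nucleus. Prdm1, also known as Blimp1, is a zinc finger repressor that holds bipolar cell genes down in young photoreceptors. Pias3 is a SUMO ligase that modifies Nr2e3 in mouse rods and so helps to hold cone genes down.

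The following 6 elements are those on which the results turn: the promoter elements of Samd11 and Samd7, elements of the Casz1 and Pias3 neighborhoods that were more open in rods, and elements of the Samd7 and Prdm1 neighborhoods that were more open in Nrl-/- photoreceptors. Positions are in GRCm38/mm10, and bases are given 5' to 3' on the plus strand. Capitals mark the letters TAATCC (the core recognized by CRX), TAAGCC (a variant of it), TGCTGA (part of the NRL element), AGGTCA (the unit bound by nuclear receptors), GTGAAAG (the core recognized by PRDM1) or CATATG (an E-box), searched on both strands with overlaps allowed.
Samd11_6, chr4:156255339-156255538, plus strand: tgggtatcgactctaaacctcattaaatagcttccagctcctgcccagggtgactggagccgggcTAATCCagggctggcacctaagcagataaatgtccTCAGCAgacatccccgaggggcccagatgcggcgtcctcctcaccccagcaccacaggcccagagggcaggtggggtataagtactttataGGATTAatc
Samd7_4, chr3:30746105-30746304, plus strand: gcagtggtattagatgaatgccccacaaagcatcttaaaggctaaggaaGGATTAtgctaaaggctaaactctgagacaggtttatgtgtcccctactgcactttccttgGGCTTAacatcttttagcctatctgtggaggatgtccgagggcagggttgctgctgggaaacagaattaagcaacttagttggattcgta
Casz1_10, chr4:148830412-148830611, plus strand: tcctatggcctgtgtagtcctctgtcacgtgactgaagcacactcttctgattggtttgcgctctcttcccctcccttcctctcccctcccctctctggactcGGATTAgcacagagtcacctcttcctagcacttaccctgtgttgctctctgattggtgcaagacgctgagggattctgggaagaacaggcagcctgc
Pias3_10, chr3:96741568-96741767, plus strand: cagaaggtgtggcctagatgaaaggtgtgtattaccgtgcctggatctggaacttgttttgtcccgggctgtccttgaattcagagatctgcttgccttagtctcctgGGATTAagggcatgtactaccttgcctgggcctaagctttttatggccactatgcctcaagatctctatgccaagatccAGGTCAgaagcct
Samd7_13, chr3:30808823-30809022, plus strand: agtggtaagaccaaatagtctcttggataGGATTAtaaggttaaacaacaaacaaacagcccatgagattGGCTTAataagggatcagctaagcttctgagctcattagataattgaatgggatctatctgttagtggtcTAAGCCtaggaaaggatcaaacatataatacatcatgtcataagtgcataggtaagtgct
Prdm1_13, chr10:44496424-44496623, plus strand: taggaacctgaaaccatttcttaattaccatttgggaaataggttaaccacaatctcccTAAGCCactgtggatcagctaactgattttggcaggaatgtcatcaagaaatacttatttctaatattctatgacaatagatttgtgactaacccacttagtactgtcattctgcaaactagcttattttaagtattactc

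TAATCC was in 23 of the 68 elements (33.8%), against 21.1% of all 53204 elements, and in 7.06% of the 32851 mouse promoters of 300 bp from RefSeq. TAAGCC was in 16 of the 68 (23.5%), against 14.2% of all. TGCTGA was in 8 (11.8% against 15.9%), AGGTCA in 9 (13.2% against 14.9%), GTGAAAG in 3 (4.41% against 2.47%) and CATATG in 1 (1.47% against 2.5%). The Samd11 promoter element held TAATCC at 2 positions and TGCTGA at 1. These matches are letters in a window and are given as a description.

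Totals in elements were 1062403 to 5770075 reads per ATAC-seq library, lowest in the double-sorted green cones, and totals in genes were 18376770 to 26312895 reads per RNA-seq library. Between replicates, the variance over elements was 2.14 to 2.28 times the mean in 3 of the groups and 4.59 times the mean in the double-sorted green cones, so that this pair stood apart. Nrl, the targeted gene, was at 735 ± 125 CPM (SD, n = 3) in rods and at 32.5 ± 7.49 CPM (SD, n = 3) in Nrl-/- photoreceptors. CPM here is the count divided by the library total as scaled by TMM. Summed over 7 rod markers the level was 95277 to 127902 CPM in rods and 8855 to 13139 CPM in Nrl-/- photoreceptors, and over 7 cone markers 535 to 548 CPM and 73937 to 85047 CPM. In bulk samples, fewer cells of a type and less RNA per cell cannot be told apart. According to the sequencing metrics, RNA integrity was lower in every rod library than in every Nrl-/- library, and the part of this in the results was not tested.

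The RNA comparison asked which of the 5 genes differ between rods and Nrl-/- photoreceptors. Samd7 and Samd11 had more RNA in rods, and Prdm1 had more RNA in Nrl-/- photoreceptors. The test was edgeR's quasi-likelihood test with a log2 fold change of 1 as its limit and Benjamini-Hochberg adjustment over the 12327 genes tested. All 5 genes passed the filter on low counts. At an adjusted p under 0.05, 6.88% of the genes tested passed toward rods and 13.3% toward Nrl-/- photoreceptors, and of the 5 genes 2 and 1 did. The 3 rod libraries did not overlap the 3 Nrl-/- libraries for any of the 5 genes. Such a separation was found in 34.3% of the genes tested with rods higher and in 32.8% with Nrl-/- higher.

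Samd11 showed the largest difference of the 5. The rod libraries were at 929, 726 and 851 CPM and the Nrl-/- libraries at 32.7, 25.8 and 21.2 CPM. The rod libraries lay far above the Nrl-/- libraries, and the spread within each group was small beside the gap. The means were 835 ± 103 CPM (SD, n = 3) and 26.6 ± 5.76 CPM (SD, n = 3), a log2 fold change of 4.95 ± 0.19 (SE), or 30.9-fold, with an adjusted p of 1.85e-09 from edgeR. It was number 85 of the genes tested by fold change toward rods. The gene shares 598 bp of exon with Noc2l on the other strand, the libraries do not mark strand, and Noc2l had 120 to 162 reads per library.

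Samd7, the partner of Samd11, moved the same way by less. It was at 426, 424 and 387 CPM in rods and at 102, 92.4 and 84.0 CPM in Nrl-/- photoreceptors. The groups were well apart, with little spread in either. The log2 fold change was 2.13 ± 0.12 (SE), or 4.36-fold, with an adjusted p of 1.33e-06. By fold change it was number 420 of the genes tested.

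Prdm1 went the other way. Rods were at 38.9, 38.5 and 42.4 CPM and Nrl-/- photoreceptors at 108, 96.2 and 102 CPM. The log2 fold change was -1.38 ± 0.11 (SE), which is 2.60-fold higher in Nrl-/- photoreceptors, with an adjusted p of 0.00405. Prdm1 is also expressed in cells of the immune system. Summed over 5 microglia markers the level was 2.09 to 3.64 CPM in rods and 14.7 to 35.3 CPM in Nrl-/- photoreceptors, and the part of this in the Prdm1 result was not tested.

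Casz1 was at 367, 351 and 331 CPM in rods and at 225, 149 and 141 CPM in Nrl-/- photoreceptors. The groups did not overlap, but Nrl-/- replicate 1 lay nearer to the rods than the other Nrl-/- libraries did. Casz1 did not pass the test with the limit of 1 (1.00 ± 0.17 SE, adjusted p 0.754), and it passed the test against no change (adjusted p 0.000304). Without Nrl-/- replicate 1 the log2 fold change was 1.27 with an adjusted p of 0.0217.

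Pias3 differed least. Its level was 693, 621 and 719 CPM in the rod libraries, and the Nrl-/- libraries were at 510.2, 469 and 378 CPM. The log2 fold change was 0.56 ± 0.14 (SE, 95% interval 0.26 to 0.86), which did not pass the test with the limit of 1. Against no change the adjusted p was 0.00373. Against no change, 4 of the 5 genes passed toward rods and 1 toward Nrl-/- photoreceptors, beside 29.5% and 31.4% of the genes tested.

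**Figure D1:**
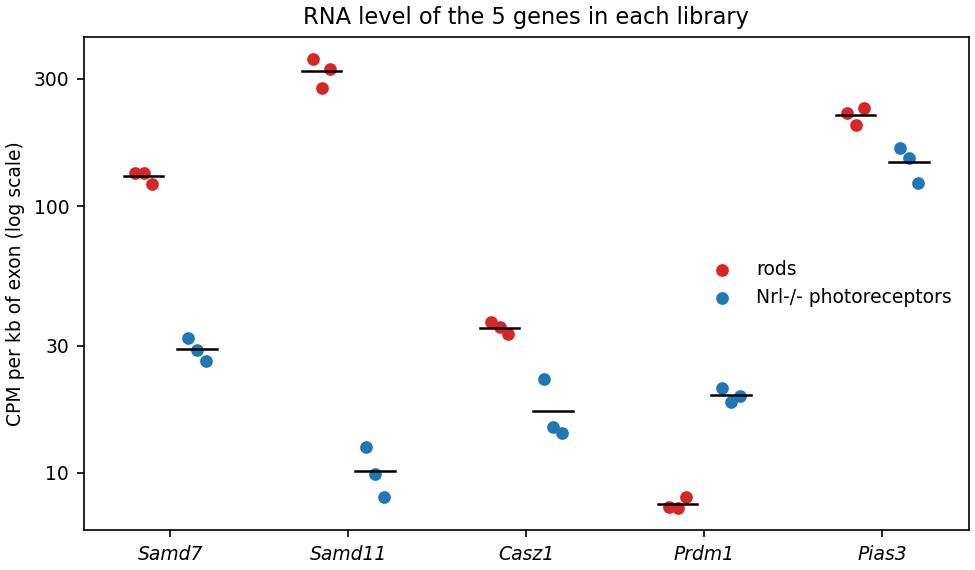
RNA level of the 5 genes in CPM per kb of exon on a log axis, in each of 3 rod and 3 Nrl-/- libraries (points) with the group mean (bar). Samd11 had the highest level of the 5 in rods and the lowest in Nrl-/- photoreceptors, and only Prdm1 was higher in Nrl-/- photoreceptors.

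To compare genes with each other, levels were taken per kb of exon. Besides Samd11, Casz1 shares 993 bp of exon with Gm13205 and Pias3 shares 179 bp with Nudt17. The part of these overlaps in the levels was not tested. In rods the order was Samd11 at 319.6 CPM per kb, Pias3 at 219, Samd7 at 129, Casz1 at 35.0 and Prdm1 at 7.67, and no neighbors in this order overlapped over the 3 libraries. In Nrl-/- photoreceptors it was Pias3 at 146 CPM per kb, Samd7 at 29.1, Prdm1 at 19.6, Casz1 at 17.1 and Samd11 at 10.2. There Prdm1 and Casz1 overlapped and the other neighbors did not. Samd11 thus went from the first place to the last.

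The genes most like each of the 5 over the 6 libraries were found by the root mean square difference of log2 CPM centered on the mean of the gene. They were Zfp770, Zfp597 and Mpdz for Samd7 (0.06 to 0.08), Zan, BC046251 and Galnt10 for Samd11 (0.12 to 0.19), and Agfg1, Golgb1 and Otud4 for Casz1 (0.04 to 0.06). For Prdm1 they were Mgrn1, Sh3glb2 and Pomt2 (0.05 to 0.06), and for Pias3 B4galt3, Zcchc8 and Tubgcp3 (0.03 to 0.04). With 2 groups of 3, likeness reflects mostly the size of the difference between the groups.

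Partner complexes of the 5 proteins were examined as lists, whose counts stand beside 6.88% of all genes passing toward rods and 13.3% toward Nrl-/- photoreceptors. Of 23 genes of Polycomb repressive complex 1, 21 were tested, 2 were higher in rods, 1 was higher in Nrl-/- photoreceptors, and the median log2 fold change was -0.30 beside 0.01 over all genes. The subunits Phc2 (1.75 ± 0.14 SE, adjusted p 0.000128) and Phc3 (1.5 ± 0.23 SE) were higher in rods. Cbx7, a subunit that reads methylated histone H3, was higher in Nrl-/- photoreceptors (-1.74 ± 0.16 SE, adjusted p 0.000396). Among 11 genes of Polycomb repressive complex 2, which methylates histone H3, only Jarid2 passed, higher in rods (1.40 ± 0.12 SE, adjusted p 0.00375), and the median was 0.59. Of 14 genes of the NuRD complex, which removes acetyl groups and remodels nucleosomes, 1 was higher in rods and 3 were higher in Nrl-/- photoreceptors, with a median of -0.33. Mta2 was the first (1.29 ± 0.13 SE), and Mta3, Chd5 and Mbd3 were the others (-7.00 ± 0.47, -2.54 ± 0.28 and -1.48 ± 0.18 SE). Mta2 and Mta3 are alternative subunits of the same complex.

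None of 17 tested genes of the SUMO pathway, in which Pias3 works, passed the test, although against no change 7 passed toward rods and 3 toward Nrl-/- photoreceptors (beside 29.5% and 31.4% of all genes), and the median was 0.36. None had an unadjusted p under 0.05 with the limit of 1, and DESeq2 called none. Of 12 tested corepressors described with Prdm1, 2 were higher in Nrl-/- photoreceptors, Tle3 (-5.89 ± 0.37 SE) and Tle1 (-2.94 ± 0.40 SE), both of the Groucho family. Of 7 tested relatives of Prdm1, 3 were higher in rods, namely Prdm9, Prdm2 and Prdm10, with log2 fold changes of 1.79, 1.39 and 1.55. Prdm16 passed toward Nrl-/- photoreceptors only against no change (-1.44 ± 0.48 SE, adjusted p 0.0207), at 1.24 CPM or less on average. Of 8 tested relatives of the SAMD genes, 3 were higher in Nrl-/- photoreceptors, namely Samd12, Samd4 and Samd15 (-4.37, -3.69 and -1.93). Samd4b passed toward rods only against no change (0.78 ± 0.18 SE, adjusted p 0.00276).

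Of 12 photoreceptor regulators that bind or act with these proteins, 5 passed toward rods and 1 toward Nrl-/- photoreceptors. Nr2e3, the target of Pias3, went from 1748 ± 399 CPM in rods to 3.50 ± 0.91 CPM (SD, n = 3 each), and Mef2c and Esrrb were also higher in rods (4.47 and 4.12). Rxrg, a cone nuclear receptor, was higher in Nrl-/- photoreceptors (-7.93 ± 0.18 SE). All 10 cone genes described as held down with Samd7 or Pias3 were higher in Nrl-/- photoreceptors, with log2 fold changes from -7.71 to -5.70. They included Gnat2, Pde6c, Opn1sw and Cngb3, which are cone transducin, phosphodiesterase, blue opsin and channel genes. These 10 are also genes by which cones are told from rods, so they are not independent of the cell types compared. Of 9 tested genes described as held down by Prdm1 in the developing retina, 4 were higher in Nrl-/- photoreceptors, where Prdm1 was higher too, and 1 was higher in rods. Among the 4 were Cabp5 (14.3 ± 3.65 against 1390.2 ± 108 CPM), Lhx4 and Scgn, and Prkca was the one higher in rods. Of 7 bipolar markers, Trpm1, Grm6, Isl1 and Vsx1 were at 19.4 CPM or less in every library, and Cabp5 and Prkca are also among the 7. Summed over all 7 the level was 76.7 to 99.8 CPM in rods and 1340 to 1553 CPM in Nrl-/- photoreceptors. Cabp5 alone made up 1302 to 1511 CPM of the sums in Nrl-/- photoreceptors, so their excess rests on this gene. Prkca was at 51.4 to 55.8 CPM in rods and at 5.73 to 10.0 CPM in Nrl-/- photoreceptors. Of the 7, 2 passed toward Nrl-/- photoreceptors and 1 toward rods.

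Open chromatin was compared in 4 ways: rods against the 4 libraries of Nrl-/- photoreceptors and double-sorted green cones together (rods against cones), rods against each of these alone, and these against each other. The 68 elements were 13 near Samd7, 6 near Samd11, 26 near Casz1, 13 near Prdm1 and 10 near Pias3. The nearest start site was that of the named gene for 4, 1, 21, 13 and 5 of these, in that order. By place, 16 of the 68 were in promoters, among them all 6 near Samd11. A further 26 were in introns, 6 in exons and 20 between genes, and 27 of the 68 were in the peak lists of all 4 groups. In rods against cones, 10 of the 68 (14.7%) were more open in rods and 2 (2.94%) in cones, at an adjusted p under 0.1 from the same edgeR test. Over all 51563 elements tested, 3.98% were more open in rods and 18.1% in cones. Against no change 26 and 7 of the 68 passed, beside 18.3% and 27.8% of all. With the processed reads of each library as its size, 17 and 0 of the 68 passed, and the rod share of all calls went from 18% to 35.4%. Of the 10, 7 were near Casz1, 2 near Samd11 and 1 near Pias3, and both elements more open in cones were near Samd7. The median log2 fold change was 1.25 over the elements near Samd11, 1.18 near Casz1, 0.11 near Pias3, -0.19 near Prdm1 and -0.38 near Samd7, beside -0.13 over all elements. Fewer elements passed toward rods when either rod replicate was left out, which leaves 1 library for rods. The part of this in the count was not tested.

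Against Nrl-/- photoreceptors, 10 of 66 elements tested were more open in rods and 7 in Nrl-/- photoreceptors, beside 6.38% and 21.0% of all elements. Against no change these were 35 and 9, beside 27.5% and 33.5%. Here 8 of the 10 were near Casz1. The 7 were 3 each near Samd7 and Prdm1 and 1 in Casz1. Against double-sorted green cones, 11 of 67 elements tested were more open in rods and 1 in green cones, beside 6.43% and 18.7% of all elements. Against no change these were 22 and 5, beside 19.8% and 26.6%. Without double-sorted green replicate 3 the 11 became 6, and without replicate 4 they became 26. Between double-sorted green cones and Nrl-/- photoreceptors none of 59 elements tested passed, beside 0.0374% and 0.00234% of all elements, and against no change none passed either, beside 1.99% and 1.06%. DESeq2 called none as well. At an unadjusted p under 0.05 with the limit of 1, 3 were higher in each group. In simulated counts of this comparison, the test called 9.09% of log2 fold changes of 2 and 47% of those of 3. The absence of calls therefore does not show that the 2 groups are alike. Replicate 3 of the double-sorted green cones was low at many elements near Casz1 and Samd11, and without replicate 4, which leaves it alone, 8 elements were higher in Nrl-/- photoreceptors.

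**Figure D2:**
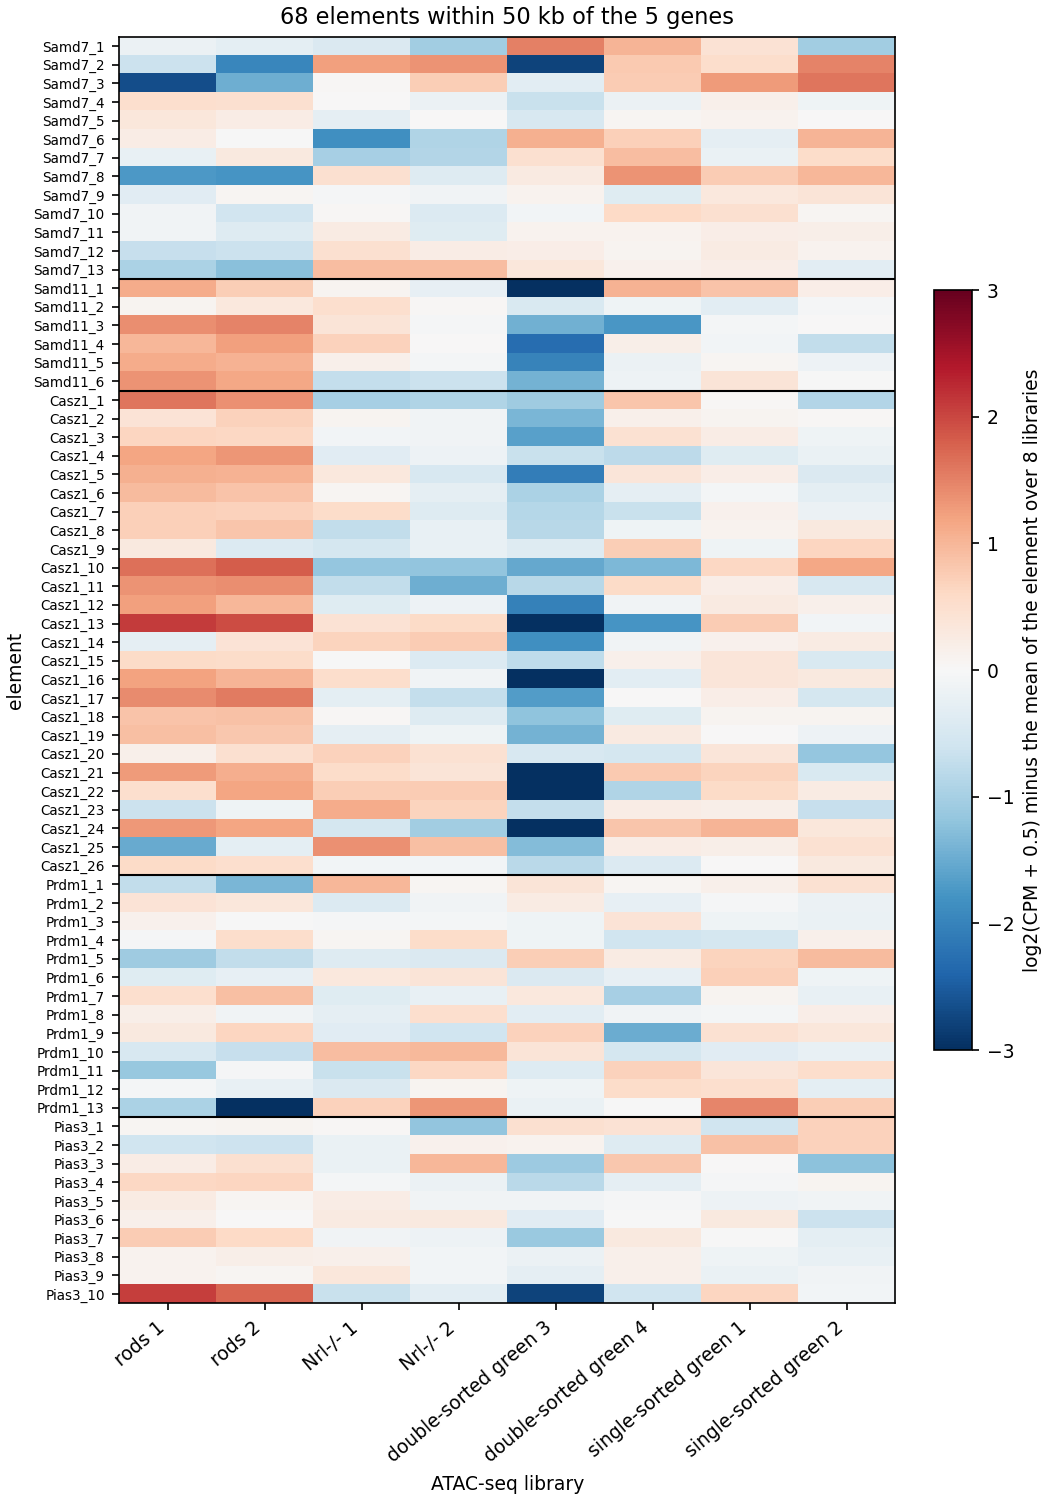
Accessibility of the 68 elements (grouped by gene, down the plot) in 8 ATAC-seq libraries (across), as log2(CPM + 0.5) minus the mean of the element over the libraries. Most elements near Samd11 and Casz1 were highest in a rod library, and double-sorted green replicate 3 was the lowest library at many of them.

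The Samd11 promoter element, which starts the printed sequences, was at 87.5 and 76.8 CPM in rods, 20.3 and 21.6 in Nrl-/- photoreceptors, 12.4 and 30.5 in double-sorted green cones, and 44.4 and 33.7 in single-sorted green cones. Both rod libraries were above all 6 others. The log2 fold change was 1.97 ± 0.27 (SE, adjusted p 0.00741) against cones, 1.95 ± 0.16 (adjusted p 1.93e-06) against Nrl-/- photoreceptors and 1.93 ± 0.38 (adjusted p 0.0313) against double-sorted green cones. The last call was lost in 5 of 11 alternatives, by DESeq2 (adjusted p 0.341), without rod replicate 1 (0.173), rod replicate 2 (0.104) or double-sorted green replicate 3 (0.108), and with single-sorted green cones (0.99, adjusted p 0.672). The calls against cones and against Nrl-/- photoreceptors held in all alternatives run. It was in the peak lists of all 4 groups. A further 2 elements of this neighborhood passed a test, the promoter elements of AW011738 and Noc2l. At the first, rods were at 19.8 and 21.1 CPM and double-sorted green cones at 2.33 and 1.80 CPM. The call of this element against cones was lost in 8 of 14 alternatives, among them DESeq2 (adjusted p 0.655) and a replicate block (0.16). Against Nrl-/- photoreceptors it did not pass. At the Noc2l element rods were at 44.8 and 42.6 CPM and double-sorted green cones at 4.66 and 18 CPM, a call lost without either rod library or without double-sorted green replicate 3 (adjusted p 0.157 to 0.333).

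Near Casz1, 20 of 26 elements were higher in both rod libraries than in all 6 others, against 24.2% of all elements. The 3 of lowest adjusted p toward rods against Nrl-/- photoreceptors were in the gene, and their values against cones follow. The printed intron element Casz1_10 was at 32.1 and 36.0 CPM in rods, 4.14 and 4.09 in Nrl-/- photoreceptors and 3.11 and 3.59 in double-sorted green cones, but at 15.6 and 22.8 CPM in single-sorted green cones. Its log2 fold change was 3.14 ± 0.33 (SE, adjusted p 0.000571) against cones, and when single-sorted green cones replaced the double-sorted ones it was 1.58 and did not pass (adjusted p 0.179). Casz1_17, in an exon, was at 43.5 and 48.2 CPM in rods and at 4.66 to 16.2 CPM in the 4 cone libraries (2.1 ± 0.35 SE, adjusted p 0.0128), and did not pass without rod replicate 2 (adjusted p 0.109). The intron element Casz1_11 was at 15.8 and 16.2 CPM in rods and at 1.82 to 8.98 CPM in the 4 cone libraries (2.08 ± 0.53 SE, adjusted p 0.0570). This last call was lost in 5 of 14 alternatives, by DESeq2 (adjusted p 0.563) and without either rod or either Nrl-/- library (adjusted p 0.103 to 0.236). Casz1_25 went the other way, at 1.25 and 3.58 CPM in rods but 12.4 and 8.85 CPM in Nrl-/- photoreceptors (-2.09 ± 0.49 SE, adjusted p 0.0181). It lost its call by DESeq2 (adjusted p 0.349) and with processed reads (0.239). The call was also lost without rod replicate 1 (log2 fold change -1.53) or Nrl-/- replicate 1 (-1.83).

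The gene has 2 annotated start sites. The element at the first was at 38.1 and 37.7 CPM in rods and at 3.89 to 23.4 CPM in the other libraries. The element at the second, the most accessible of the neighborhood, was at 109.8 and 96.6 CPM in rods, 67.9 and 44.0 in Nrl-/- photoreceptors, and 5.44 and 37.7 in double-sorted green cones. It passed only against double-sorted green cones (2.27 ± 0.56 SE, adjusted p 0.0504), the pair whose replicates lay far apart. This call was lost by DESeq2 (adjusted p 0.268) and with single-sorted green cones (log2 fold change 0.75). Neither start site element passed the limit of 1 against Nrl-/- photoreceptors (adjusted p 0.255 and 0.906), and both passed against no change (adjusted p 3.15e-05 and 2.44e-06). Without Nrl-/- replicate 1 both passed the limit of 1 as well, with log2 fold changes of 1.59 (adjusted p 0.0164) and 1.24 (adjusted p 0.0557).

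The Samd7 promoter element was open in every library, at 74.3 and 72.5 CPM in rods and 32.6 to 57.6 CPM in the other 6, and did not pass with the limit of 1 (0.73 ± 0.22 SE, adjusted p 0.985, against cones). Against no change it passed toward rods in all 3 comparisons, with adjusted p of 0.0237 (cones), 0.000511 (Nrl-/-) and 0.0332 (double-sorted green cones). The intron element Samd7_5 was the most accessible of the neighborhood, at 98.5 and 90.2 CPM in rods and 56.0 to 84.2 CPM in the others. Against Nrl-/- photoreceptors the log2 fold change at the promoter element was 0.58, beside 2.13 for the RNA. The elements more open in cones lay away from the promoter. The printed Samd7_13, within Sec62, was at 4.79 and 3.77 CPM in rods, 19.0 and 19.1 in Nrl-/- photoreceptors, and 7.75 to 12.4 in green cones, with -1.87 ± 0.42 (SE, adjusted p 0.0472) against cones. This call was lost in 6 of 14 alternatives, by DESeq2 (adjusted p 0.411), with processed reads (0.302) and without either rod or either Nrl-/- library (0.105 to 0.262). Against Nrl-/- photoreceptors alone (-2.17 ± 0.33 SE, adjusted p 0.000962) it was lost with processed reads only (0.166). Samd7_3, upstream of the gene, was at 0.21 and 1.13 CPM in rods and 3.11 to 13.2 CPM in the others (-2.92 ± 0.87 SE, adjusted p 0.0676). That call was lost by DESeq2 (adjusted p 0.241), with processed reads (0.179) and without Nrl-/- replicate 2 (0.157). It was also lost without rod replicate 1, where the log2 fold change was -2.20. Samd7_2 passed against Nrl-/- photoreceptors (-2.95 ± 0.62 SE) and Samd7_8 against double-sorted green cones (-3.57 ± 0.90 SE, on 4 reads in rods).

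At Prdm1 the promoter element was the most accessible, at 113 and 108 CPM in rods, 63.3 and 78.5 in Nrl-/- photoreceptors, 101 and 71.0 in double-sorted green cones and 82.0 and 74.3 in single-sorted green cones. It was higher in rods, where the RNA was lower, but did not pass the test with the limit of 1 (0.60 ± 0.12 SE against Nrl-/- photoreceptors, adjusted p 0.000102 against no change). The 3 elements that passed there were more open in Nrl-/- photoreceptors, in the same direction as the RNA, but DESeq2 called none of the 3. The printed Prdm1_13 was at 1.67 and 0 CPM in rods, where 0 reads allow up to 0.565 CPM, and at 6.21 and 9.99 CPM in Nrl-/- photoreceptors (-3.34 ± 0.69 SE, adjusted p 0.00141). By DESeq2 it did not pass (-3.28, adjusted p 0.977). Prdm1_10 was at 7.50 and 6.40 CPM in rods but 20.7 and 21.3 CPM in Nrl-/- photoreceptors (-1.61 ± 0.29 SE, adjusted p 0.0240). That call was lost by DESeq2 (adjusted p 0.475) and with processed reads (adjusted p 0.463). It was also lost without rod replicate 2, where the log2 fold change was -1.48. Prdm1_1, in an exon of the gene, was at 2.92 and 1.69 CPM in rods but 10.8 and 5.45 CPM in Nrl-/- photoreceptors (-1.77 ± 0.54 SE, adjusted p 0.0895), a call that 7 of 11 alternatives did not keep. In rods against cones none of the 13 elements passed.

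Pias3 has 2 annotated start sites. The element at the first was at 57.3 and 58.7 CPM in rods and 21.0 to 39.7 CPM in the other 6, and the element at the second was at 64.6 and 56.5 CPM in rods and 49.3 to 64.2 CPM in the others. Neither passed with the limit of 1. Against no change the first passed toward rods in all 3 comparisons, with adjusted p of 0.0131 (cones), 0.000104 (Nrl-/-) and 0.0168 (double-sorted green cones). Without double-sorted green replicate 4 it also passed the limit of 1 against green cones (1.47, adjusted p 0.052). The only call near this gene was Pias3_10, in an intron of Rnf115, at 14.0 and 11.1 CPM in rods, 1.66 and 2.27 in Nrl-/- photoreceptors and 0 and 1.80 in double-sorted green cones. Its log2 fold change was 2.94 ± 0.60 (SE, adjusted p 0.0161) against cones, a call lost without rod replicate 1 (log2 fold change 2.81). The call against double-sorted green cones alone was lost by DESeq2 (3.89, adjusted p 0.282) and without rod replicate 1 (3.62). When single-sorted green cones replaced the double-sorted ones, the log2 fold change was 1.58 and did not pass (adjusted p 0.101). The ratio to double-sorted green cones, which had 2 reads in all, was 14.9 with an exact 95% counting interval of 4.05 to 125. Reads were paired-end, and 77.4% and 78.2% of the counts above 0 in the double-sorted green libraries were even. The 2 reads may therefore come from a single fragment, and the interval, which treats reads as independent, may be too narrow. The most accessible element of the neighborhood was the Rnf115 promoter element, at 72.3 and 70.4 CPM in rods and 56.0 to 84.9 CPM in the others.

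**Figure D3:**
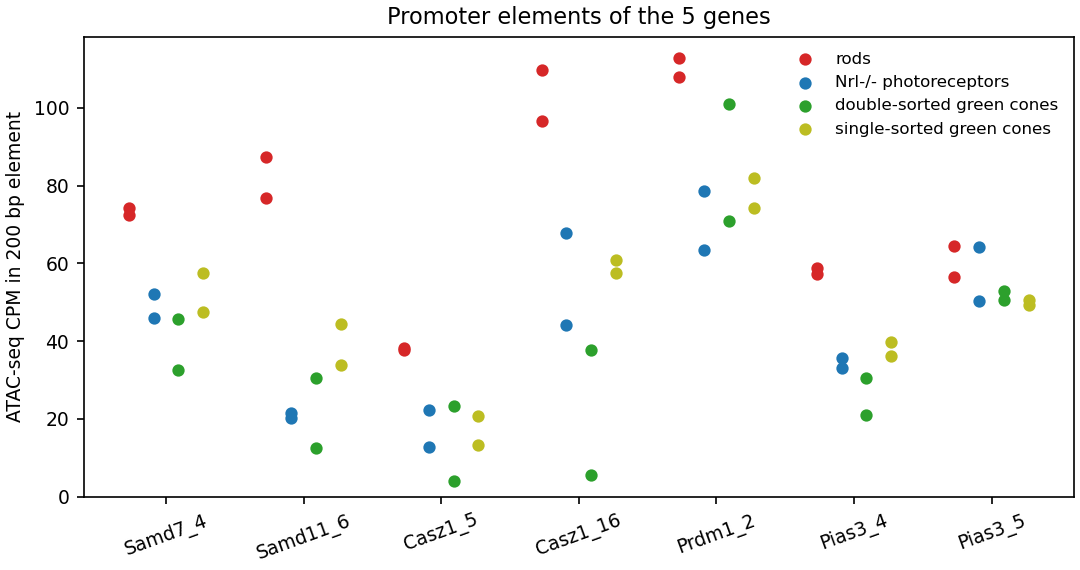
CPM of the 7 promoter elements of the 5 genes in each of 8 ATAC-seq libraries (points, 2 per group, linear axis). The rods lie above the other 6 libraries at Samd7_4, Samd11_6, Casz1_5, Casz1_16, Prdm1_2 and Pias3_4, and among them at Pias3_5.

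**Figure D4:**
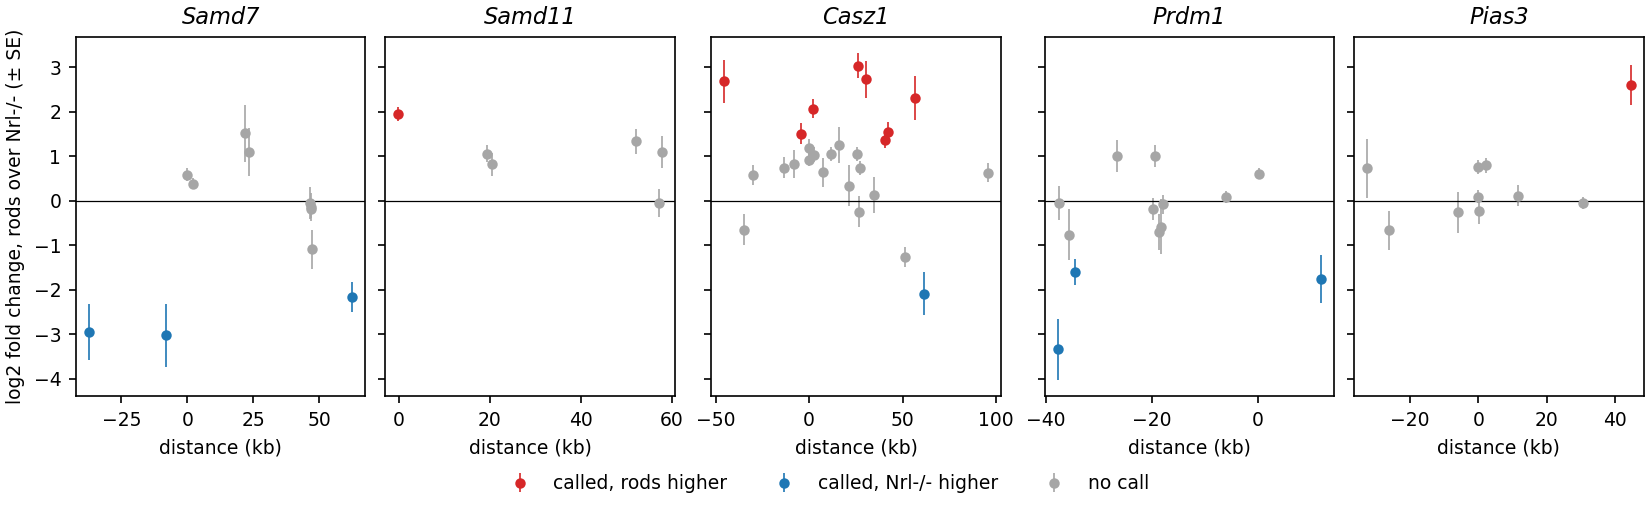
Log2 fold change of rods over Nrl-/- photoreceptors (± SE) for the 66 elements tested, against the distance in kb from the nearest start site of the gene named above each panel, with called elements in color. Rod-high calls gather at Casz1, and calls toward Nrl-/- photoreceptors lie at Samd7, Prdm1 and Casz1.

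Counts were last summed over the elements of each neighborhood. These sums include elements of neighboring genes: of the 6 elements near Samd11, all in promoters, only 1 had Samd11 as its nearest start site. For Samd11 the sum was 196 and 187 CPM in rods and 28 to 101 CPM in the other 6 libraries, a mean log2 difference of 1.43. For Casz1 it was 797 and 783 CPM in rods and 139.9 to 472 CPM in the others, a difference of 1.17. For Pias3 it was 306 and 289.6 CPM in rods and 181 to 262 CPM in the others (0.39), for Prdm1 278 and 282 CPM and 233 to 274 CPM (0.16), and for Samd7 248 and 231 CPM and 201 to 264 CPM (0.02). The rods did not overlap the others except at Samd7. In a two-sided exact permutation test of 2 rod against 6 other libraries the smallest possible p is 0.0357. The exact p was 0.0357 for Samd11 and Pias3, 0.0714 for Casz1 and Prdm1, and 0.893 for Samd7, and adjusted over the 5 sums the first 4 were each 0.0893, above the threshold of 0.05, which this design cannot pass unless at least 4 of the sums reach the smallest p.

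**Figure D5:**
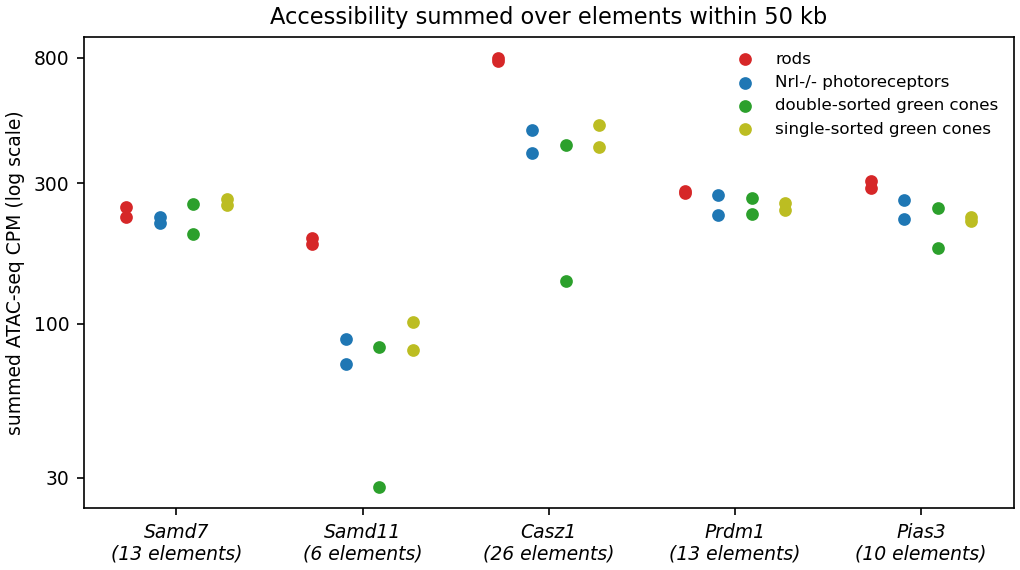
Summed CPM of the elements within 50 kb of each gene on a log axis, in each of 8 ATAC-seq libraries (points). The rods were highest at Samd11 and Casz1, double-sorted green replicate 3 was lowest at both, and at Samd7 the rods lay among the others.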

How the data were processed

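Per the methods and the submitters' processing notes, the authors aligned ATAC-seq reads to GRCm38/mm10 with Bowtie2 2.2.3, filtered them with SAMtools 1.3 and Picard 1.121, kept short inserts and called peaks with MACS2 2.1.0 on pooled replicates. The deposited ATAC-seq counts are raw reads per 200 bp element. For RNA-seq, STAR 2.4.2a was used for alignment, and the deposited counts per gene came from HTSeq 0.6.1p1. Reads without a gene (41.3% to 49.2%) were left out. The deposited peak lists give, for each peak, its score from MACS2, its fold enrichment over background, its −log10 p and a summit offset, and were used for membership and fold enrichment only. The peak lists have no replicates.

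Libraries were scaled by TMM and filtered by filterByExpr. Each of the 5 comparisons was fitted on the whole table with the quasi-likelihood model of edgeR 4.0.16 in R 4.3.3 and tested by glmTreat with a log2 fold change of 1 as the limit. P-values were adjusted by Benjamini-Hochberg over all features, with calls under 0.05 (RNA) and 0.1 (ATAC). Samples were grouped by their labels, and p-values measure the spread between these libraries, each a pool of mice. Totals were 1062403 to 5770075 counts (ATAC) and 18376770 to 26312895 counts (RNA). A count of 0 allows up to 3 counts. Such limits and counting intervals (95%, Clopper-Pearson) cover counting error only. They treat reads as independent, although ATAC-seq reads were paired-end and 62.6% to 78.2% of the counts above 0 per library were even. Where both reads of a fragment were counted, these limits and intervals are too tight. Sums per neighborhood were compared as log2 CPM, with 0.5 added to the summed count before scaling. Element locations and sequences were taken from RefSeq on GRCm38, with a promoter reaching from 1000 bp before to 100 bp after a start site. The scripts were tested on simulated data. In simulated ATAC-seq counts, 9.09% to 18.6% of log2 fold changes of 2 and 47% to 82.8% of those of 3 were called, depending on the comparison. In simulated RNA-seq counts 93% and 100% were called. An element without a call may therefore still differ.

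The 5 genes and all gene lists were chosen with earlier results of these data known. Named elements were those at promoters of the 5 genes, those called (where a neighborhood had more than 6, the 3 of lowest adjusted p per direction) and the most accessible of each neighborhood. Up to 4 genes with the lowest adjusted p were named per list, and 3 genes per member for likeness. Genes or elements named beyond this were chosen after their values were seen. The values of 1 list member are not reported here. Alternatives were other size factors, DESeq2 1.42.0, no filter, a test against no change, leaving out each library, a replicate block, processed reads as library sizes, a joint fit, single-sorted green cones and other windows.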

Additional observations from a re-analysis of the deposited data

Results flagged for a closer look

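The summed CPM of the elements near Casz1 was 139.9 in double-sorted green replicate 3, far below the other 5 libraries that are not rods, which lay between 381 and 472. At Casz1_1, an element between genes upstream of Casz1, double-sorted green replicate 4 was at 7.187 CPM, far above the other 3 cone libraries at 1.56 to 1.82 CPM. In all, 37 groups were checked in this way, of which chance singles out about 1 in 20. Both libraries belong to the pair whose replicates differed most, and had the lowest totals, 1263753 and 1062403 counts. The part of depth in these values was not tested.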

How the results depend on the processing

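In RNA, the calls of Samd7, Samd11 and Prdm1 held under every alternative run. Against no change, 4 genes passed toward rods. For rods against cones, elements more open in rods numbered 10, and were 4 by DESeq2, 26 against no change, 17 with processed reads as library sizes, and 3 to 9 with a library left out (3 without either rod library). Elements more open in cones numbered 2, and were 0 by DESeq2, 7 against no change, 6 with a replicate block, 0 with processed reads, 4 in a joint fit of all 4 groups, 5 with single-sorted green cones, 1 within 10 kb, 1 by nearest start site, and 0 to 6 with a library left out (6 without double-sorted green replicate 3). Against Nrl-/- photoreceptors, the 10 toward rods were 6 by DESeq2 and 35 against no change, and the 7 toward Nrl-/- were 2 by DESeq2, 3 with processed reads and 3 within 10 kb. Against double-sorted green cones, the 11 toward rods were 2 by DESeq2, 22 against no change, 6 with single-sorted green cones, and 5 to 26 with a library left out. The single element toward green cones became 2 with RLE size factors, 0 by DESeq2, 5 against no change, 2 in the joint fit, 5 with single-sorted green cones, 0 by nearest start site, and 0 to 1 with a library left out. Between green cones and Nrl-/- photoreceptors, 1 element passed toward green cones with single-sorted libraries, and 0 to 8 toward Nrl-/- with a library left out (8 without double-sorted green replicate 4). Over all elements, rods against cones gave 2054 and 9340 calls by edgeR and 687 and 6495 by DESeq2. Processed reads moved the median log2 fold change of all elements from -0.13 to 0.34. The mean log2 differences of the sums were then 0.6531 (Samd7, beside 0.02 with TMM), 2.0649 (Samd11), 1.8064 (Casz1) and 1.0245 (Pias3). Each of these had an adjusted exact p of 0.0446 in the permutation test, and the Prdm1 sum did not pass. The shift of all elements enters each of these sums.

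The Samd7 sum changed sign between -0.0324 and 0.0703 with a library left out. Uncalled promoter elements also changed sign. Rods over Nrl-/- at Pias3_5 ranged from -0.0863 to 0.2794 with a library left out. Green cones over Nrl-/-, with single-sorted libraries, were 0.1269 at Samd7_4, 0.1367 at Pias3_4, 0.0472 at Casz1_5 and 0.1194 at Casz1_16, and with processed reads 0.0382 at Pias3_5 and -0.0194 at Samd11_6. With a library left out they ranged from -0.3266 to 0.0255 at Pias3_5, from -2.1005 to 0.4869 at Casz1_5 and from -0.7432 to 0.5546 at Samd11_6. The cause of these shifts was not tested.

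Replicate numbers were not taken to pair the samples, since same-numbered libraries correlated at 0.195, 0.102 and 0.0233 in RNA and at 0.0293 in ATAC-seq. With a replicate block, RNA calls were 2 and 1 and rods against Nrl-/- gave 10 and 6. No paired analysis was possible for double-sorted green cones alone because they share no replicate numbers with the other groups. The double-sorted green cones had the lowest depth, with 1062403 and 1263753 counts.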

Other observations

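Among genes that lie within 50 kb of the 5, AW011738 beside Samd11 was the one that passed the RNA test. It was higher in rods (log2 fold change 2.11 ± 0.30 SE, adjusted p 0.00231 by edgeR), with means of 6.68 CPM (rods) and 1.52 CPM (Nrl-/-). Its promoter element was also more open in rods than in double-sorted green cones. This element did not pass against Nrl-/- photoreceptors, and DESeq2 did not call it against double-sorted green cones (adjusted p 0.153). Sec62, which lies beside Samd7 and holds the element Samd7_13, had a log2 fold change of -0.38 ± 0.13 (SE), which did not pass.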
